A study of Mus musculus with 10 samples.

Results

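Metallothioneins and zinc transporters were followed in brains of the inbred mouse strain C57BL/6, taken at an age of 1 week or 8 weeks. The members were chosen by gene symbol: a probe set belonged if the array annotation gave it the symbol Mt1, Mt2, Mt3, Slc30a1, Slc30a3, Slc30a4, Slc39a1, Slc39a10 or Slc39a14. This rule found 10 probe sets for 8 of the 9 genes, out of 22626 probe sets and 12393 genes with a probe set of their own, and no probe set carried the symbol Slc39a10. Total RNA of each brain was hybridised to 1 Affymetrix MOE430A array, on which a probe set is a group of short oligonucleotides that read 1 transcript. The 10 arrays comprised 6 at 1 week (3 labelled female, 3 labelled male) and 4 at 8 weeks (2 labelled female, 2 labelled male), with no treatment or transgene named in the labels. The labels number the brains within a group and do not say whether each came from a separate animal, so the p-values measure the spread between these samples.

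Metallothioneins are small cysteine-rich proteins that bind zinc and copper in the cytosol. In brain, Mt1 and Mt2 are known mainly from astrocytes and are induced by zinc through the transcription factor MTF1, whereas Mt3 is enriched in brain and is not induced by metals in the same way. Zinc transporters fall into 2 families with opposite directions: SLC30 proteins carry zinc out of the cytosol, either from the cell or into vesicles, and SLC39 proteins carry it into the cytosol.

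Mt3, Mt2 and Mt1 lie next to each other on mouse chromosome 8, on 27.7 kb of the RefSeq annotation of GRCm38.p6. Mt3 spans positions 94152607 to 94154148, Mt2 94172618 to 94173567 and Mt1 94178883 to 94180327. MTF1 binds short metal response elements, whose core was searched here as TGCACNC and TGCGCNC on both strands of the 250 bases before a RefSeq gene start, matches of either form being counted together. Of 32817 such windows in the mouse promoter table, 21.4% held at least 1 match and 1.26% at least 3. The windows of Mt2 and Mt3 are printed because both genes rose in these data and the windows stand at the ends of this count, with 3 matches for Mt2 and 0 for Mt3. They are given 5′ to 3′ on the plus strand (Mt2, chr8:94172368-94172617; Mt3, chr8:94152357-94152606), with matches in capitals.
Mt2: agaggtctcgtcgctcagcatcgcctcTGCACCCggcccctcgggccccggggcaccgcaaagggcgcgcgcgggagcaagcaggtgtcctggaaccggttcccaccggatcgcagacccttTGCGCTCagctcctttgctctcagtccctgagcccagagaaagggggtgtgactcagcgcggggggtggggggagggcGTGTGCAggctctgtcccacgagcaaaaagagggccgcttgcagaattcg
Mt3: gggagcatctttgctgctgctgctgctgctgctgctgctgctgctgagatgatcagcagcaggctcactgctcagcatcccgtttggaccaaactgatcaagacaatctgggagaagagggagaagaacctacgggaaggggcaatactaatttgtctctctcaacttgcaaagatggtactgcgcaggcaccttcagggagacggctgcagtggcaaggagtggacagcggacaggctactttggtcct
The windows of Mt1, Slc30a1 and Slc30a3 each held 1 match, and the 30 bases around it are shown for comparison (Mt1, chr8:94179055-94179084, plus strand; Slc30a1, chr1:191906727-191906756, plus strand; Slc30a3, chr5:31108303-31108332, minus strand). The match of Slc30a1 lies on the strand opposite to the one printed.
Mt1: cggtcccgctgTGCACACtggcgctccagg
Slc30a1: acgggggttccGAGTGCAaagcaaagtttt
Slc30a3: gaaactgcgctTGCGCACtttgtaggggac
The window of Slc30a4 held 2 matches, and that of Slc39a1 held 0. For Mt1, Slc30a1 and Slc39a1 the start used was not the first base of the gene model but lay inside the gene. The matches printed for Mt1 and Slc30a1 lie inside the gene span. Their counts therefore leave out part of the 250 bases before that span and cannot be ranked against that of Mt2. A 2nd annotated start of Slc30a3 had 0 matches before it, and so did both starts of Slc39a10. A match describes these letters in this window and is not evidence of binding. The member windows ranged in GC content from 35.6% (the first start of Slc39a10) to 82.8% (Slc30a4), with 54.8% for Mt3 and 67.6% for Mt2, against a median of 52.4% over all windows.

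The arrays were not equally bright as deposited, with trimmed means from 138 in replicate 1 labelled male at 1 week to 318 in replicate 1 labelled female at 8 weeks, so they were put on a common scale by quantile normalization. All levels below are normalized intensities, and changes are log2 values at 8 weeks minus 1 week, averaged over the sex labels, with the standard error from limma. At 1 week, Xist and Eif2s3y went against the sex label in 4 arrays (replicates 1 and 2 labelled female, replicates 2 and 3 labelled male) and did not settle it in 1 (replicate 3 labelled female). Results are therefore given by age. Part of those that rest on the doubted arrays are also given without them, but the within-array comparisons of members are not. Neuronal markers were present at both ages: summed over 6 genes, they ran from 9274 to 10649 at 8 weeks and from 6187 to 8204 at 1 week. They did not all go one way: 3 rose, 2 were not called and 1, Tubb3, fell (-2.28 ± 0.11). Over all genes 21.9% were called higher and 24.0% lower.

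The comparison of ages asked how expression differed between the brain of week-old pups and that of young adults. All 3 metallothionein genes rose with age, Mt1 most, while the zinc transporters changed little: Slc30a3, which fills synaptic vesicles with zinc, rose slightly, as did 1 of the 2 probe sets of Slc39a14. Of the 10 member probe sets, 9 were bright enough to be tested. At an adjusted p under 0.05, 5 were higher at 8 weeks and 0 lower, where 22.0% of the 13576 probe sets tested were called higher and 24.0% lower, together 46.0%. The median change of the 9 was 0.28, beside -0.015 over all probe sets tested. At least 2-fold rises numbered 3, all metallothioneins (background 3.31%), and the same 3 had no overlap between the ages (background 17.1% for rises and 35.4% for either direction).

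Mt1 was read by probe set 1422557_s_at, whose suffix marks probes shared by more than 1 transcript, so other transcripts of near-identical sequence cannot be separated from it. Among the pups, the female label gave 634, 743 and 779 (replicates 1 to 3) and the male label 706, 657 and 582.5. Among the adults, the female label gave 3026 and 3791 and the male label 3228 and 3851. The lowest array at 8 weeks was thus far above the highest at 1 week, and within an age the arrays of both labels were intermixed. The mean went from 684 ± 72.8 (SD, n = 6) to 3474 ± 409.7 (SD, n = 4), a log2 change of 2.30 ± 0.10 (limma, adjusted p = 3.47e-07, range over its alternatives 8.29e-16 to 0.000801), which placed it 34th of the 13576 probe sets by rise. A further Mt1 probe set, 1451612_at, was too dim to be tested and read 22.4 ± 7.17 (SD, n = 6) at 1 week and 22.9 ± 4.30 (SD, n = 4) at 8 weeks. Averaging this dim probe set with the bright one gave a change of 1.17.

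**Figure D1:**
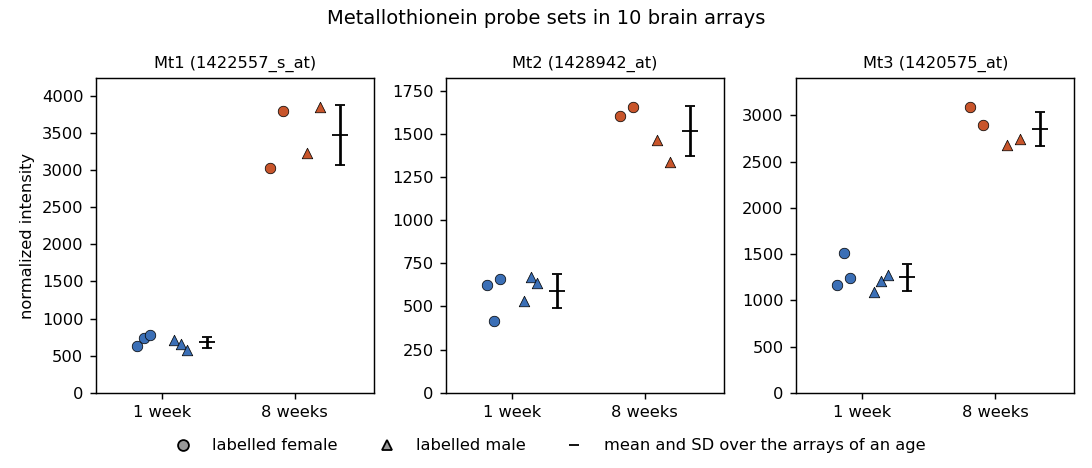
Normalized intensity (vertical axis, from 0) of the Mt1, Mt2 and Mt3 probe sets in each array at 1 week and 8 weeks, with circles for arrays labelled female and triangles for those labelled male; the bar beside each age is the mean with its SD. In all 3 panels every array at 8 weeks lies above every array at 1 week, and the gap is widest for Mt1, at 684 against 3474 in the mean.

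Mt2, the other widely expressed metallothionein, stood at 626, 415 and 656 in pups of the female label (replicates 1 to 3) and at 530.3, 668 and 635 in those of the male label. Adults of the female label had 1606 and 1655, and adults of the male label 1463 and 1339.5. Replicate 2 labelled female was the lowest at 1 week, although the same array was above the median of its age for Mt1. The ages did not overlap, and the mean went from 588 ± 98.1 (SD, n = 6) to 1516 ± 143 (SD, n = 4), a log2 change of 1.34 ± 0.13 (limma, adjusted p = 2.38e-05).

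Mt3, known as growth inhibitory factor in brain, measured 1169, 1515 and 1244 in pups of the female label and 1088, 1208 and 1277 in those of the male label, again in replicate order. The adult values were 3089.6 and 2895 under the female label and 2682 and 2747 under the male label. Replicate 2 labelled female, lowest for Mt2, was the highest at 1 week for Mt3, and the ages again did not overlap. The log2 change was 1.18 ± 0.09 (limma, adjusted p = 5.92e-06), from 1250.3 ± 145 (SD, n = 6) to 2853 ± 181 (SD, n = 4).

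The metallothioneins did not rise by the same amount. Within each array, the log2 value of Mt1 minus that of Mt2 was 1.18 ± 0.25 (SD, n = 4) at 8 weeks and 0.22 ± 0.34 (SD, n = 6) at 1 week, so the change of Mt1 exceeded that of Mt2 by 0.96 (two-sided exact permutation test over the arrays, p = 0.00952, adjusted p = 0.0238 over 5 pairs of members). Mt1 exceeded Mt3 by 1.12 in the same way (exact permutation p = 0.00952, adjusted p = 0.0238), and in both cases the ages did not overlap. That p is the smallest which 210 splits of 6 and 4 arrays can give in a two-sided test. Mt2 and Mt3 differed by 0.16 in their change, with overlapping ages (exact permutation p = 0.495, adjusted p = 0.495). These are differences between probe sets, which can respond to their transcripts with unlike steepness.

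The rises of the 3 metallothioneins held under the 28 alternatives tried for each, with changes from 1.17 to 2.80 for Mt1, from 1.17 to 1.88 for Mt2 and from 1.12 to 1.68 for Mt3. With the 4 arrays of opposed sex markers left out, Mt1 changed by 2.16 ± 0.13, Mt2 by 1.32 ± 0.14 and Mt3 by 1.26 ± 0.11. Without the unsettled array as well, only replicate 1 labelled male was left at 1 week, and the changes were 2.20, 1.47 and 1.34. Within the female label the changes were 2.20, 1.52 and 1.19, and within the male label 2.40, 1.17 and 1.18, for Mt1, Mt2 and Mt3 in that order.

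Markers of astrocytes, the cells in which Mt1 and Mt2 are best known, did not all go one way. Of 12 astrocyte markers 6 rose, 2 fell and 4 were not called (gene by gene the background was 21.9% higher and 24.0% lower, together 45.9%), and on the deposited scale 9 rose and 0 fell. Their summed intensity ran from 16257 to 17176 at 8 weeks and from 7424 to 10497 at 1 week, without overlap, and 0 of them were at an intensity of 0. Bright risers weigh most in that sum, such as Aldoc, a glycolytic enzyme gene, with means of 5681 and 1968. Those that rose included Gjb6, a gap junction gene (2.07 ± 0.12), and Glul, the glutamine synthetase gene (1.55 ± 0.08). The 2 that fell, both without overlap between the ages, were Aldh1l1, whose product acts in folate metabolism (-0.80 ± 0.13), and the glial transcription factor gene Sox9 (-0.65 ± 0.09). Gfap and Gja1 were not called, at 0.03 ± 0.21 and 0.12 ± 0.08. Of the 11 markers that could be tested without the 4 arrays of opposed sex markers, 6 rose and 1 fell. A change in the number of astrocytes and a change in RNA per astrocyte cannot be told apart in whole-brain RNA, and the part of cell composition in the rise of the metallothioneins was not tested. Microglial markers all rose, 7 of 7, with sums from 3152 to 4236 at 8 weeks and from 2291 to 2759 at 1 week. Without the 4 arrays of opposed sex markers only 2 of the 7 passed as higher and 0 as lower. Their median change was then 0.46, beside 0.45 with all arrays. Of 7 meningeal and fibroblast markers 4 fell (Col1a1, Col3a1, Col1a2 and Igf2, with changes from -3.69 to -1.12), 2 were not called, and Ptgds, the brightest, rose (0.89 ± 0.14). Their sum overlapped between the ages, from 7262 to 7894 at 8 weeks and from 5832 to 14498 at 1 week, as did that of 6 choroid plexus markers, from 4034 to 9150 and from 5145 to 6374. The part of these cells in the metallothionein result was not tested either.

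**Figure D2:**
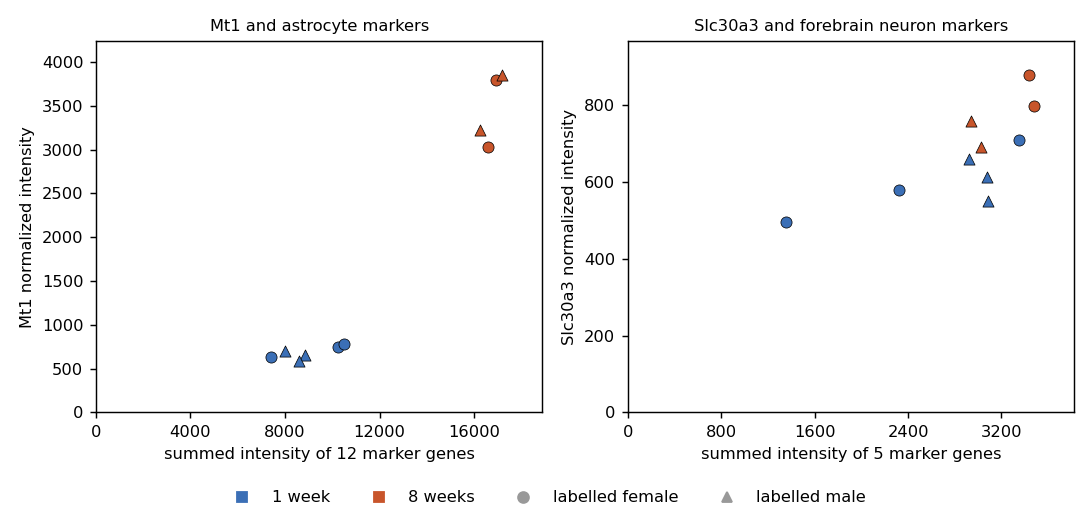
Normalized intensity of Mt1 against the summed intensity of 12 astrocyte markers (left) and of Slc30a3 against that of 5 forebrain glutamatergic neuron markers (right), 1 point per array, both axes from 0; blue is 1 week, orange 8 weeks, circles labelled female and triangles labelled male. On the left the ages form separate groups in both directions, and on the right the marker sums of the ages overlap while replicate 3 labelled female at 1 week is lowest on both axes.

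The few genes tested around the metallothionein cluster did not all go one way. Within 200 kb on either side, 4 genes other than the members were tested: 1 rose and 2 fell. Over all genes 21.9% were called higher and 24.0% lower. Bbs2, a gene of the ciliary BBSome complex that lies before the cluster, went from 63.5 ± 12.05 (SD, n = 6) to 107 ± 6.49 (SD, n = 4), a change of 0.59 ± 0.10. Its level at 1 week lay below 73.9, the dimmest mean kept by the filter. Nudt21, which encodes an RNA 3′ end processing factor, changed by -0.83 ± 0.08, and Gnao1, a G protein alpha subunit gene, by -0.69 ± 0.10. Neither fall passed when the deposited values were used without normalization (-0.30 ± 0.14 and -0.19 ± 0.13), a scale on which all probe sets together shifted by 0.47. Nup93, a nuclear pore gene just beyond Mt1, was not called (-0.15 ± 0.08) but passed as higher on that scale (0.36 ± 0.13). Mt4, the metallothionein of stratified epithelia at the other end of the cluster, was below the filter, at 9.44 ± 8.72 (SD, n = 4) at 8 weeks and 11.9 ± 6.97 (SD, n = 6) at 1 week.

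Among the exporters, Slc30a3 encodes ZnT3, the transporter that loads zinc into synaptic vesicles of glutamatergic neurons. Its level was 710.3, 578 and 496 in pups of the female label and 551, 614 and 660.3 in those of the male label. In adults it was 878 and 799 under the female label and 759 and 690.5 under the male label. The ages overlapped by 1 array each, replicate 1 labelled female at 1 week being above replicate 2 labelled male at 8 weeks. The mean went from 602 ± 77.1 (SD, n = 6) to 782 ± 78.5 (SD, n = 4), a log2 change of 0.37 ± 0.11 (limma, adjusted p = 0.0159, range over its alternatives 6.10e-05 to 0.235). The call was lost without replicate 1 labelled female at 8 weeks (0.34 ± 0.12, adjusted p = 0.0601) and without replicate 1 labelled male at 8 weeks (0.33 ± 0.12, adjusted p = 0.0573). Within the female label it held (0.49 ± 0.15, adjusted p = 0.0303) and within the male label it was lost (0.25 ± 0.15, adjusted p = 0.235). Without the 4 arrays of opposed sex markers it held with a larger change (0.56 ± 0.13, adjusted p = 0.0133). Without the 5 doubted arrays the change was 0.49, from a fit with a single array at 1 week.

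Markers of forebrain glutamatergic neurons, the cells known for vesicular zinc, differed among themselves. Of 5 such markers measured, Camk2a, a kinase of the postsynaptic density, rose without overlap between the ages (2.13 ± 0.21) and Neurod6, a transcription factor of cortical neurons, fell (-0.95 ± 0.22). Neurod2 (0.64 ± 0.25), Nrgn (0.22 ± 0.20) and Tbr1 (0.15 ± 0.21) were not called. On the deposited scale 4 of the 5 rose and 1 fell, and without the 4 arrays of opposed sex markers Neurod2 passed (1.28 ± 0.23) and Neurod6 did not (-0.69 ± 0.31). The sum of the 5 overlapped between the ages and ran from 2942 to 3478 at 8 weeks and from 1352 to 3349 at 1 week. In replicate 3 labelled female at 1 week, which had the lowest Slc30a3, this sum was lowest, at 1352, and the sum of 7 cerebellar neuron markers was the highest of its age, at 5819. In replicate 1 labelled female, which had the highest Slc30a3 of its age, the forebrain sum was 3349 and the cerebellar sum 2250. Replicate 1 labelled male went the other way, with the lowest cerebellar sum of its age (1970) and a forebrain sum of 3082. Its Slc30a3, at 551, was below all pups but replicate 3 labelled female. The cerebellar sum overlapped between the ages, from 4541 to 16518 at 8 weeks and from 1970 to 5819 at 1 week. Without replicate 3 labelled female the change of Slc30a3 was 0.31 ± 0.10 (adjusted p = 0.0270). The share of forebrain in each sample was not tested as a part of the Slc30a3 result.

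Slc30a1 encodes ZnT1, the exporter of the plasma membrane and a known MTF1 target, and its probe set was among the dimmest that could be tested, brighter than 41.6% of all. Pups of the female label had 92.0, 64.7 and 55.9, and those of the male label 46.2, 105 and 115. The 4 adult values, 84.7 and 71.7 under the female label and 90.6 and 86.3 under the male label, all lay inside the range of the pups. The change was 0.09 ± 0.19 (limma, adjusted p = 0.724). It turned to -0.07 ± 0.12 without replicate 1 labelled male at 1 week, the lowest for this gene and the dimmest array as deposited. On the deposited scale it passed as higher (0.47 ± 0.19, equal to the median of all probe sets there). Without the 4 arrays of opposed sex markers this probe set fell below the filter and was not tested. When replicate 1 labelled male alone was left at 1 week, the change was 0.63, a value in which that array stands for its whole age and the spread comes from the adults alone.

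Slc30a4, which encodes ZnT4 of endosomes and secretory vesicles, had its lowest, median and highest intensity at 238, 343 and 409.7 at 1 week. The adults, at 358, 262, 254 and 299, lay within that range. The change was -0.18 ± 0.13 and was not called (limma, adjusted p = 0.293), and it was above 0 on the deposited scale (0.34 ± 0.16, against a median of 0.47 over all probe sets) and with spike-in scaling (0.05 ± 0.17, against 0.195 over all). The change of Slc30a3 exceeded that of Slc30a4 by 0.55 within arrays, which did not pass after adjustment (exact permutation p = 0.0381, adjusted p = 0.0635 over 5 pairs).

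**Figure D3:**
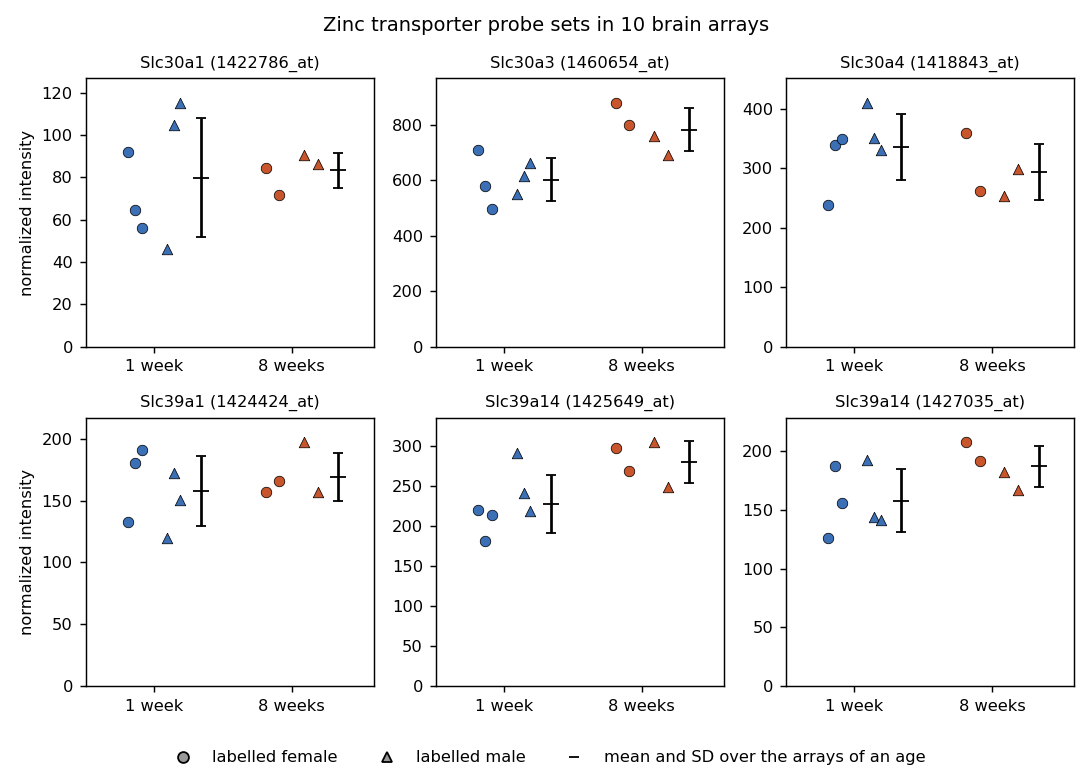
Normalized intensity (vertical axes, from 0) of the 6 zinc transporter probe sets tested, in each array at 1 week and 8 weeks, with circles for arrays labelled female and triangles for those labelled male; bars are the mean with its SD over an age. The ages overlap in all 6 panels, and the spread of Slc30a1 at 1 week, from 46.2 to 115, covers all its values at 8 weeks.

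Among the importers, Slc39a14 encodes ZIP14, which carries zinc, manganese and iron. Probe set 1425649_at gave 221, 182 and 214 in pups of the female label and 291, 241 and 219 in those of the male label. It gave 297 and 268 in adults of the female label and 305 and 249 in those of the male label. Replicate 1 labelled male at 1 week lay among the values of 8 weeks, so the ages overlapped. The mean went from 228 ± 36.4 (SD, n = 6) to 279.9 ± 26.1 (SD, n = 4), and the change of 0.28 ± 0.10 passed narrowly (limma, adjusted p = 0.0456, range over its alternatives 5.35e-05 to 0.815). The call was lost in 7 of the 10 fits that left out 1 array. At 1 week these were the fits without replicate 2 (0.24) or 3 (0.29) labelled female and without replicate 2 (0.27) or 3 (0.24) labelled male. At 8 weeks they were those without replicate 1 (0.24) or 2 (0.31) labelled female and without replicate 1 labelled male (0.21). With age alone in the model the call was lost too (limma, adjusted p = 0.0543). It was also lost without the 4 arrays of opposed sex markers (0.15 ± 0.15, limma, adjusted p = 0.483). Without the 5 doubted arrays, when replicate 1 labelled male alone stood for 1 week, the change was -0.05.

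The other probe set of Slc39a14, 1427035_at, went from 158 ± 26.6 (SD, n = 6) to 187 ± 17.2 (SD, n = 4) and was not called (0.22 ± 0.12, limma, adjusted p = 0.140). It passed on the deposited scale (0.70 ± 0.14) and with spike-in scaling (0.43 ± 0.17). Slc39a1, which encodes the plasma membrane importer ZIP1, ran from 119.8 to 191 at 1 week and from 157 to 197 at 8 weeks, with a change of 0.10 ± 0.12 (limma, adjusted p = 0.547). It passed on the deposited scale only among the 4 scalings (0.56 ± 0.16). The changes of Slc39a14 and Slc39a1 differed by 0.18 within arrays (exact permutation p = 0.40, adjusted p = 0.495 over 5 pairs).

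**Figure D4:**
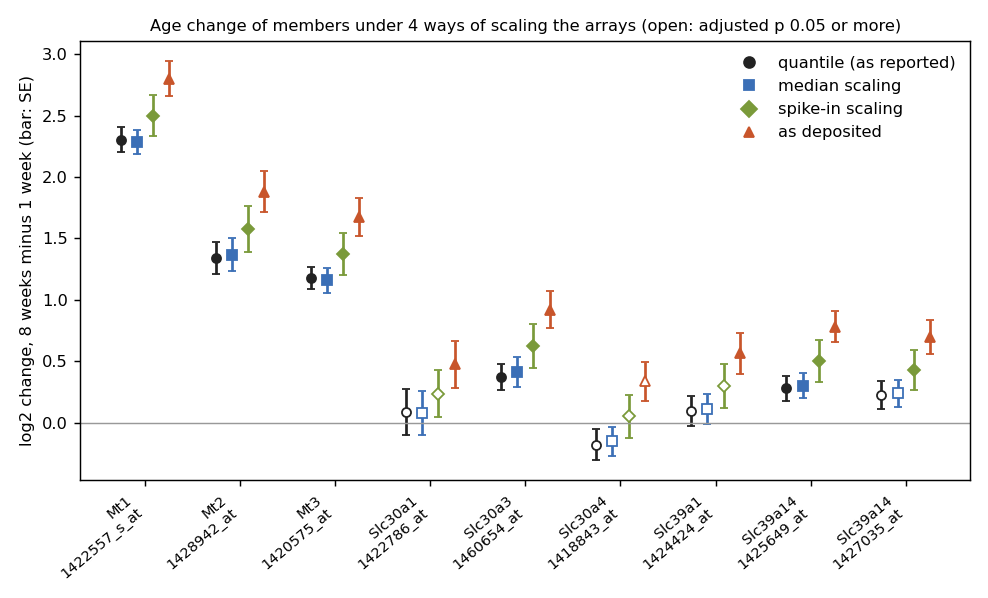
Log2 change at 8 weeks minus 1 week of the 9 member probe sets (vertical axis, bars are standard errors) under quantile normalization, median scaling, spike-in scaling and the deposited values; open symbols did not pass an adjusted p of 0.05. The metallothioneins lie above 1 under all 4, while Slc30a4 lies below 0 under the first pair and above 0 under the others.

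The direction of small changes depended on the scale, because the deposited values were brighter at 8 weeks. Without normalization the probe sets had a median change of 0.47, with 8673 called higher and 629 lower, against 2993 and 3253 after quantile normalization. With scaling to 11 spike-in probe sets the median was 0.195, with 3644 higher and 1070 lower. Of the 9 member probe sets, 8 were called higher on the deposited scale and 6 with spike-in scaling. Among the members only the metallothioneins stood above the median shift by more than 1 on each of these scales.

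Among the other genes of both transporter families tested, 5 of 10 were called, a share near the 45.9% over all genes, and the falls were all of SLC39 genes. Of 7 other SLC30 genes listed, 5 had a probe set and 3 were tested: 1 rose, 0 fell and 2 were not called, while on the deposited scale all 3 rose. The riser was Slc30a9, which encodes the mitochondrial ZnT9 and went from 360.03 ± 51.7 (SD, n = 6) to 549 ± 76.0 (SD, n = 4), a change of 0.58 ± 0.12 (limma, adjusted p = 0.00294). Of 11 other SLC39 genes, 8 had a probe set and 7 were tested: 1 rose, 3 fell and 3 were not called. Slc39a8, which encodes the zinc and manganese importer ZIP8, went from 106 ± 15.9 (SD, n = 6) to 44.2 ± 5.67 (SD, n = 4), a change of -0.92 ± 0.08 (limma, adjusted p = 1.20e-05). Its level at 8 weeks lay below 73.9, the dimmest mean kept by the filter, so it passed the filter through the arrays at 1 week. A further Slc39a8 probe set was too dim to be tested. Slc39a6, whose product ZIP6 is known from cell migration, changed by -0.77 ± 0.08 (by -0.32 ± 0.08 in a second probe set), and Slc39a11 by -0.47 ± 0.10. Slc39a13, which encodes ZIP13 of intracellular vesicles, changed by 0.33 ± 0.10. On the deposited scale Slc39a6 (-0.23 ± 0.15) and Slc39a11 (0.04 ± 0.13) lost their calls, and Slc39a11 changed direction, and 4 of the 7 rose and 1 fell. With the 4 arrays of opposed sex markers left out, 6 of the 7 could be tested, 2 fell and 0 rose, and Slc39a13 was no longer called (0.28 ± 0.16).

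**Figure D5:**
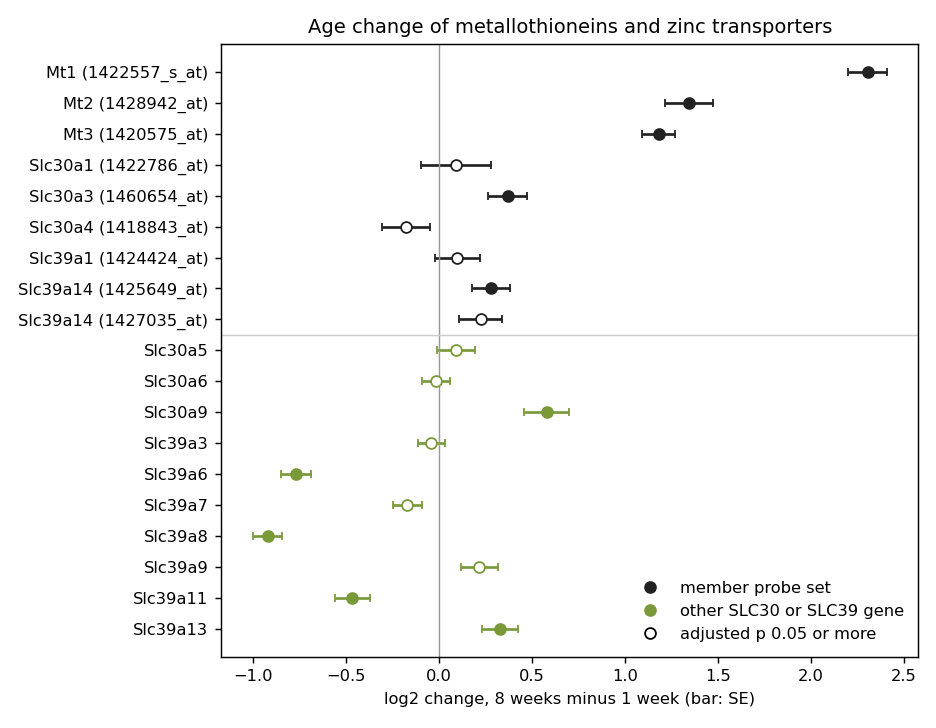
Log2 change at 8 weeks minus 1 week (horizontal axis, bars are standard errors) of the 9 member probe sets (black) and of the 10 other SLC30 and SLC39 genes tested (green); open circles did not pass an adjusted p of 0.05. The 3 metallothioneins lie to the right of every transporter, and the falls, to -0.92 for Slc39a8, are all of SLC39 genes outside the member list.

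A list of zinc sensing and MTF1-dependent genes, Mtf1 among them, was chosen with earlier results of these data known. It included Mt4, which was below the filter, and Gpr39, which had no probe set. Of 7 genes listed, 5 were tested and 4 rose, 0 fell and 1 was not called. Over all genes 21.9% were called higher and 24.0% lower. Slc30a1, a known MTF1 target outside this list, was not called (0.09 ± 0.19). The part of MTF1 in the metallothionein rise was not tested. Mtf1 itself changed by 0.34 ± 0.11 (limma, adjusted p = 0.0257), from 125 ± 13.998 (SD, n = 6) to 165 ± 24.1 (SD, n = 4). Csrp1, which encodes a LIM domain protein, changed by 2.76 ± 0.16 (by 1.87 ± 0.10 in another probe set), Ndrg1, a stress-responsive gene that is also strong in myelinating cells, by 1.25 ± 0.13, and Gclc, an enzyme of glutathione synthesis, by 0.51 ± 0.09. Oligodendrocyte markers moved the same way: 4 of 5 tested rose, and their sum of 6 genes ran from 13322 to 17242 at 8 weeks and from 2228 to 10364 at 1 week. Their part in the changes of Csrp1 and Ndrg1 was not tested. Selenow, a selenoprotein gene, was not called by its brightest probe set (0.06 ± 0.08) or by another (-0.26 ± 0.10). Without the 4 arrays of opposed sex markers 4 rose again, Mtf1 among them (0.53 ± 0.14).

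The AP-3 adaptor complex sorts Slc30a3 protein to synaptic vesicles, and of its 7 subunit genes 1 was higher, 2 were lower and 4 were not called, a share called near the 45.9% over all genes. Ap3m2, a subunit of the neuronal form, rose (0.47 ± 0.10). Ap3b2, of the neuronal form too, fell (-0.56 ± 0.12), as did Ap3s1 (-0.78 ± 0.09). On the deposited scale neither fall passed (-0.02 ± 0.15 for Ap3b2 and -0.24 ± 0.14 for Ap3s1) and 5 of the 7 rose. Ap3s2, not called by its brightest probe set (-0.10 ± 0.09), fell by another (-0.31 ± 0.09).

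Likeness between genes was measured as the root mean square difference of log2 values over the 10 arrays, each gene centred on its own mean, among 8148 genes represented by their brightest probe set. Kcna1, a potassium channel gene, was nearest to Mt1 (0.11), followed by Car2, a carbonic anhydrase gene (0.22), and Ntsr2, a receptor gene of astrocytes (0.23). Mt2 was 102nd in likeness to Mt1 and Mt3 was 128th, at 0.55 and 0.58. Nearest to Mt2 were Max (0.13), Tlcd4 (0.14) and Itm2c (0.15), and nearest to Mt3 were Cacnb4, a calcium channel subunit gene (0.08), Fam102a (0.09) and Eno2, the neuronal enolase gene (0.11). For Slc30a3 they were Celf4, an RNA-binding protein gene of neurons (0.08), Zscan22 (0.08) and Nckap1 (0.08), and for Slc39a14 Dusp19 (0.07), Czib (0.08) and Fgf12 (0.10). Members without a called change were nearest to genes that differed little between ages: Nr2c2ap, Ces4a and Banp for Slc30a1 (0.14 to 0.17), Tnfaip2, Cpa3 and Ube2d3 for Slc30a4 (0.10 to 0.11), and Pygb, Lgr5 and Trim11 for Slc39a1 (0.08 to 0.09). These distances describe 10 arrays of 2 ages and depend mostly on the size of the age difference.

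The comparison of sex labels was limited by the labels. At 8 weeks, where the markers matched the labels, 0 of the 9 member probe sets passed for male minus female label (limma), as did 0 of all 13576 (0%), and 0 members had an unadjusted p under 0.05, the lowest being 0.239. This contrast passed no probe set at all: Xist itself, at -4.37 on the log2 scale, had an adjusted p of 1, in a fit whose spread includes the arrays of 1 week that went against their label. The largest differences among members were those of Mt2 (-0.22 ± 0.20) and Slc30a3 (-0.20 ± 0.16), lower in the arrays labelled male. The change with age did not pass as different between the labels for any of the 9 either (0 called at an adjusted p under 0.05, background 0%, and 0 at an unadjusted p under 0.05, the lowest being 0.177).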

How the data were processed

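Per the labels, total RNA of 10 C57BL/6 brains was hybridised to MOE430A arrays. The authors deposited linear intensity values, with 1 column for each array, and how the probes were summarised is not given in the sources used here. Array controls (64 of 22690 probe sets) were set aside, leaving 22626, of which 20380 had 1 symbol, 691 several and 1555 none. Arrays were quantile-normalized and log2 was taken after adding 24, the 20th percentile of the deposited values. Probe sets under the 40th percentile of mean log2 value were left out. A model with 1 mean per group of age and sex label was fitted to the remaining 13576 with limma 3.58.1 (lmFit, eBayes) in R 4.3.3, two-sided, with Benjamini-Hochberg adjustment over all of them and a threshold of 0.05. Within-array log2 differences between 2 members were compared between the ages with exact permutation tests (scipy 1.17.1). The number of arrays limits the precision. The filter and the fit were tested on simulated log2 values. The scaling of the arrays was not part of that test. The members and gene lists were chosen with earlier results of these data known. All member probe sets were named, and from each pathway list the called genes with the largest changes (at most 4 in the commoner direction, 2 in the rarer) and, for each member, the 3 genes most like it. Neighbours, markers and uncalled list genes named beside these were chosen after their values were seen. Promoter windows were RefSeq's (GRCm38.p6), matched by symbol for 8 of the 9 members. Alternatives were other scalings, pseudocounts and filters, leaving out each array, array weights, an intensity trend, a replicate block, age alone, single labels, averaged probe sets and a 2-fold minimum. Leaving out the 4 arrays with opposed sex markers, and rerunning the lists on other scales and without doubted arrays, were added after seeing the data.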

Additional observations from a re-analysis of the deposited data

How the results depend on the processing

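Replicate numbers were not used as pairs in the main model. Deviations from the group means correlated between -0.0251 and 0.193 in 13 same-numbered pairs, with a median of 0.098. In 24 pairs of unlike number they correlated between -0.177 and 0.177, with a median of -0.060. With the number as a replicate block 4 member probe sets were higher, since Slc39a14 1425649_at was lost (0.25, limma, adjusted p = 0.0550). Slc30a3 passed narrowly in that fit (0.34, limma, adjusted p = 0.0494), and 2847 of all were higher and 3054 lower. On the deposited scale 8 members were higher, with 8673 of all higher and 629 lower, and Slc30a4 turned to 0.34. With spike-in scaling 1070 of all were lower and Slc30a4 was 0.052. Without the 5 arrays with doubted sex markers 1975 of all were higher and 1747 lower, and the probe sets of Slc39a14 turned to -0.054 and -0.041; without the 4 opposed ones 1973 were lower. Within the female label 1957 of all were higher, Slc30a4 turned to 0.011 and Slc39a1 to -0.037, and within the male label 3 members were higher. Averaging each gene's probe sets gave 1787 higher and 1835 lower genes among the 7436 kept by the filter, fewer features by construction. With a 2-fold minimum 3 members and 450 of all were higher and 393 lower. Leaving out 1 array gave 3 to 5 members higher and 0 lower, with 2480 to 2936 of all higher and 2729 to 3126 lower. The count of 3 came without replicate 1 of either label at 8 weeks. Slc30a1 ran from -0.065 (without replicate 1 labelled male at 1 week) to 0.18. Apart from what is stated here the cause of these shifts was not tested. Dim probe sets such as that of Slc30a1 limit what could be detected.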

Other observations

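Glucocorticoids are known to induce the genes of a further list, as they do Mt1 and Mt2. This list too was chosen with earlier results of these data known. Of 8 listed and tested, 6 rose, 0 fell and 2 were not called, where 21.9% of all genes were called higher and 24.0% lower. The part of glucocorticoids in the metallothionein rise was not tested. Sgk1, a kinase gene, went from 245 ± 57.003 (SD, n = 6) to 533 ± 109.6 (SD, n = 4), a change of 1.05 ± 0.12 (limma, adjusted p = 7.25e-05). Errfi1, a feedback inhibitor of growth factor receptors, changed by 0.96 ± 0.16, Tsc22d3, known as GILZ, by 0.89 ± 0.17, and Klf9, a transcription factor gene, by 0.86 ± 0.09. Fkbp5, a classic target, was not called (-0.15 ± 0.10). Without the 4 arrays of opposed sex markers, with 2 arrays left at 1 week, 5 of the 8 rose.

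Copper, which metallothioneins also bind, has its own transport and chaperone genes. Of 9 tested, 1 rose, 3 fell and 5 were not called, where 21.9% of all genes were called higher and 24.0% lower, and on the deposited scale 5 rose and 0 fell. Cox17, the copper chaperone of mitochondria, went from 180 ± 47.7 (SD, n = 6) to 643 ± 42.2 (SD, n = 4), a change of 1.74 ± 0.13 (limma, adjusted p = 6.09e-06). Commd1, which takes part in copper excretion, changed by -0.55 ± 0.08, the chaperone gene Atox1 by -0.32 ± 0.09 and the importer gene Slc31a1 by -0.27 ± 0.08. A second, dimmer probe set of Slc31a1 changed by -0.81 ± 0.09. For the brightest probe sets, none of the 3 falls passed on the deposited scale (-0.01 ± 0.13, 0.22 ± 0.16 and 0.19 ± 0.13). Leaving out the 4 arrays of opposed sex markers gave 1 rise and 2 falls among the 9.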
